A study of Drosophila melanogaster with 6 samples.

Results

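The data concern 10 genes that make, move or break down ecdysone, the moulting steroid of insects, in whole *Drosophila melanogaster* larvae. The members were taken by name: *nvd*, *sro*, *spok*, *spo*, *phm*, *dib*, *sad*, *shd*, *Cyp18a1* and *Npc1a*. All 10 had a row among the 16727 genes counted, and 9 of them had enough reads to be tested. Poly(A) RNA was sequenced from 3 CG1603PBac and 3 wt samples, which the labels call biological replicates, all from whole larvae of the second instar. CG1603PBac larvae carried the PiggyBac transgene *PBac[SAstopDsRed]LL06826* in the second intron of *CG1603*, a gene for a zinc finger protein. The study describes the insertion as one that would stop translation before the protein is complete, and uses homozygotes as its mutant. It reports that homozygotes arrest in the second instar and later die. Larvae of both genotypes were collected at the same age, counted from egg laying. The control larvae are labelled WT only. Their stock, the sex of the larvae and the number of larvae per sample are not given in the sources used here, so the p-values measure the spread between these samples only. Reads of *CG1603* were counted in both genotypes, and counts by gene do not show on which side of the insertion they lie. They therefore do not check the labels. By the edgeR test described below the gene was called higher in CG1603PBac larvae (log2 fold change 0.57, adjusted p 0.000362). *CG1603* had 956, 999 and 1072 counts in CG1603PBac libraries, against 613, 493 and 571 counts in wt libraries, which is 28.2 ± 2.40 CPM in CG1603PBac and 18.9 ± 1.70 CPM in wt larvae (SD, n = 3 each; CPM are the counts of a gene relative to its scaled library total).

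Insects do not make sterols de novo and build ecdysone from dietary cholesterol. In larvae the synthesis takes place in the prothoracic gland, a part of the ring gland that holds few cells. Npc1a moves cholesterol inside the cell. The Rieske oxygenase encoded by *nvd* (*neverland*) performs the first conversion of cholesterol. The next steps, called the black box, need the short-chain dehydrogenase encoded by *sro* (*shroud*) and a P450 enzyme encoded by *spok* (*spookier*) in larvae, with *spo* (*spook*) as its relative in the embryo and the ovary. The hydroxylases of *phm* (*phantom*), *dib* (*disembodied*) and *sad* (*shadow*) then finish ecdysone. After release, *shd* (*shade*) turns ecdysone into its active, hydroxylated form in peripheral tissues such as fat body, gut and Malpighian tubules, and *Cyp18a1* codes for the hydroxylase that inactivates the hormone. The enzymes of *dib*, *sad* and *shd* are mitochondrial P450 enzymes, whereas those of *spok*, *spo*, *phm* and *Cyp18a1* are microsomal.

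The libraries held from 27100927 to 36016914 counts on genes in CG1603PBac and from 33377603 to 34883345 in wt larvae. Reads that did not align made up 30.9% to 31.8% of the reads in CG1603PBac libraries and 8.39% to 9.09% in wt libraries. Genes with at least 1 count numbered 12965 to 13321 in CG1603PBac and 11931 to 12021 in wt libraries. Their part in the results was not tested. Levels are CPM scaled with TMM, a factor that assumes that most genes do not change. These factors were 1.14 to 1.15 in CG1603PBac and 0.864 to 0.887 in wt libraries.

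The expression of these genes did not move in 1 direction. The late steps of synthesis in the gland, *dib* and *sad*, fell in CG1603PBac larvae, *sad* by 3.15-fold against wt. The estimate for *dib* was 5.49-fold, but it rests on 7, 19 and 8 counts in CG1603PBac libraries, so its size is uncertain. *dib* passed the filter on low counts in 1 CG1603PBac and 3 wt libraries. The genes that act on finished ecdysone in other tissues, *shd* and *Cyp18a1*, rose 2.49-fold and 2.24-fold, and the sterol transporter gene *Npc1a* rose 1.31-fold. The middle steps, *spok* and *phm*, did not pass the test in either direction. The early steps *nvd* and *sro* had higher levels in every CG1603PBac library than in any wt library, but did not pass the test. *spo* was at or near 0 counts in all 6 libraries.

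Calls were made with edgeR's quasi-likelihood F test across 11306 genes, at a Benjamini-Hochberg adjusted p under 0.05. By this test 5 of the 9 members tested (55.6%) differed between the genotypes, where 69.7% of all genes tested did. The 5 include *dib*, which entered the test through the wt libraries where it was high. Of the 9 members, 3 (33.3%) were higher in CG1603PBac larvae, against 34.8% of all genes, and 2 (22.2%) were lower, against 34.9% of all genes. The CPM of the genotypes did not overlap for 7 of the 9 (77.8%), and for 73.8% of all genes. The shares of the members thus lay near or below those of all genes. On the log2 scale the median change of CG1603PBac over wt was 0.39 for the members tested and 0.06 for all genes tested. When libraries were scaled by their totals alone, the median of all genes was 0.45, and the log2 fold changes of the members moved up with it. This scaling called 5661 genes higher and 2585 lower, against 3936 and 3946 with TMM, and 5 members higher and 2 lower.

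**Figure D1:**
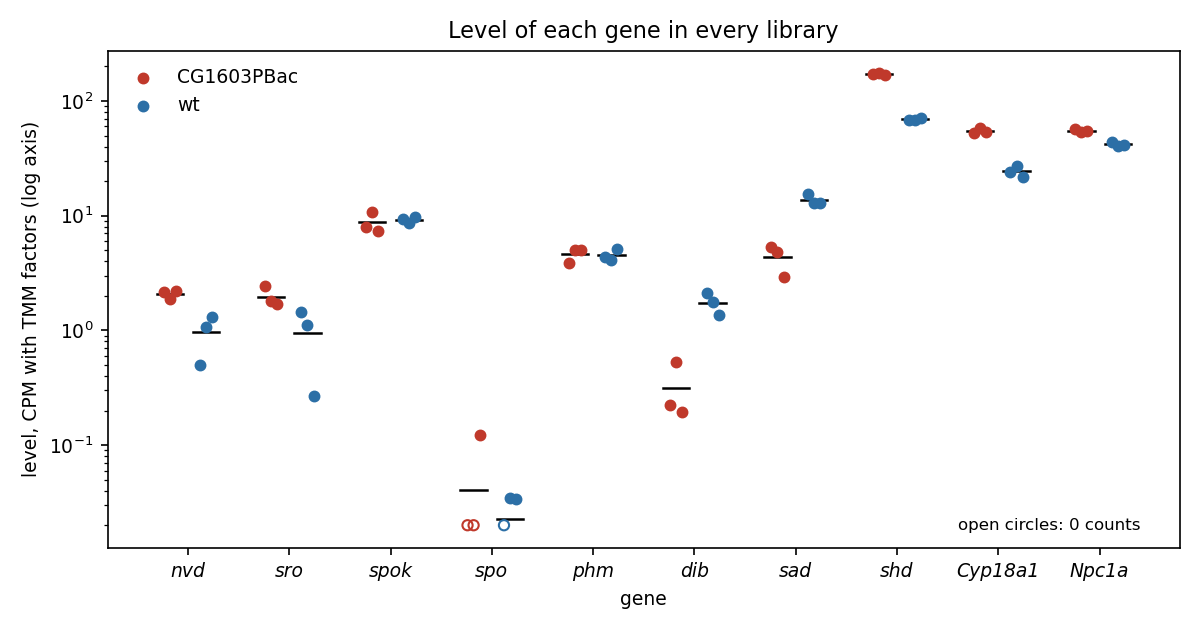
Level of each of the 10 genes in every library, as CPM with TMM factors on a log axis. Points are libraries, CG1603PBac left and wt right of each gene, lines are group means, and open circles are libraries with 0 counts. *dib* and *sad* lie lower in CG1603PBac larvae, *shd*, *Cyp18a1* and *Npc1a* lie higher, and *spok* and *phm* overlap.

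*nvd* (FBgn0287185) lies on chromosome 3L from 24324866 to 24401655 of dm6, on the plus strand, and only 1722 bp of this span are exons. It had 67, 68 and 90 counts in CG1603PBac libraries, against 15, 31 and 39 counts in wt libraries. The level of *nvd* was 2.07 ± 0.169 CPM in CG1603PBac and 0.962 ± 0.420 CPM in wt larvae (SD, n = 3 each). The groups did not overlap, and the wt libraries were the more scattered, with a coefficient of variation of 8.15% in CG1603PBac and 43.7% in wt larvae. Counting error alone gives 11.5% and 18.8% at these counts. The log2 fold change of *nvd* was 1.11 (SE 0.57, 95% interval −0.08 to 2.29), with an adjusted p of 0.0893 by edgeR. It passed the threshold without wt replicate 3, with a log2 fold change of 1.39 and an adjusted p of 0.0494. Over all alternatives the adjusted p of *nvd* ran from 0.0198 to 0.219.

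*sro* (FBgn0262112; chromosome 3R, 29794597 to 29795805, plus strand) had 75, 65 and 70 counts in CG1603PBac libraries, against 44, 32 and 8 counts in wt libraries. Every CG1603PBac library was above every wt library, and wt replicate 3 was far below the other wt libraries. The level of *sro* was 1.97 ± 0.387 CPM in CG1603PBac and 0.945 ± 0.611 CPM in wt larvae (SD, n = 3 each), and its log2 fold change was 1.06 (SE 0.63, 95% interval −0.25 to 2.36; adjusted p 0.14, edgeR). Leaving out 1 library at a time gave log2 fold changes of *sro* from 0.60 to 1.51, without a call in any of them. The opposite-strand gene *Rnb* shares 9.45% of the exon bases of *sro*.

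*spok* (FBgn0086917; chromosome 3R, 3322810 to 3354486, plus strand) was the most highly expressed of the black box genes. It had 249, 388 and 305 counts in CG1603PBac libraries, against 280, 252 and 288 counts in wt libraries. CG1603PBac replicate 2 was the highest of the 6 and CG1603PBac replicates 1 and 3 were the lowest on the CPM scale, so the groups overlapped. The level of *spok* was 8.72 ± 1.77 CPM in CG1603PBac and 9.24 ± 0.516 CPM in wt larvae (SD, n = 3 each). Its log2 fold change was −0.08 (SE 0.20, 95% interval −0.50 to 0.34; adjusted p 0.722, edgeR). It was 0.31 with library totals, also without a call.

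*spo* (FBgn0003486; chromosome 3L, 5590083 to 5592571, minus strand), an intronless gene, had 0, 0 and 5 counts in CG1603PBac libraries and 0, 1 and 1 counts in wt libraries. No library reached the 0.299 CPM of the filter on low counts, and *spo* was not tested. Of its exon bases 12.4% are shared with *l(3)psg2* on the opposite strand, and the strand setting of the counting is not given in the sources used here. Whether this overlap added to these 7 reads or took reads away is not known.

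*phm* (FBgn0004959, now named *phtm*; chromosome X, 18685766 to 18688433, plus strand) had 120, 181 and 208 counts in CG1603PBac libraries, against 132, 118 and 151 counts in wt libraries. It is not the gene *Phm*, which has a row of its own. The level of *phm* was 4.64 ± 0.675 CPM in CG1603PBac and 4.52 ± 0.527 CPM in wt larvae (SD, n = 3 each). The groups overlapped, with a log2 fold change of 0.04 (SE 0.27, 95% interval −0.52 to 0.61; adjusted p 0.902, edgeR).

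*dib* (FBgn0000449; chromosome 3L, 4062292 to 4064551, plus strand) codes for the first of the mitochondrial hydroxylases of the gland. It had 7, 19 and 8 counts in CG1603PBac libraries, against 64, 51 and 40 counts in wt libraries. All CG1603PBac libraries were lower than all wt libraries, and the lowest wt count was above the highest CG1603PBac count. The level of *dib* was 0.315 ± 0.183 CPM in CG1603PBac and 1.75 ± 0.387 CPM in wt larvae (SD, n = 3 each), a log2 fold change of −2.46 (SE 0.76, 95% interval −4.03 to −0.88; adjusted p 0.00675, edgeR). The call held in all 12 alternatives that could be fitted, with log2 fold changes from −3.04 to −2.06. With at least 10 counts required in every library *dib* could not be tested. It passed the filter on low counts in 1 CG1603PBac and 3 wt libraries, so it entered the test through the wt libraries where it was high. *wit*, on the opposite strand, shares 400 bp or 20.3% of the exon bases of *dib*, and its own log2 fold change was 0.29.

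*sad* (FBgn0003312; chromosome 3R, 11877235 to 11879754, plus strand) codes for the hydroxylase that completes ecdysone. It had 166, 174 and 121 counts in CG1603PBac libraries, against 463, 374 and 379 counts in wt libraries. The groups were well apart, and CG1603PBac replicate 3 was the lowest. The level of *sad* was 4.37 ± 1.26 CPM in CG1603PBac and 13.7 ± 1.45 CPM in wt larvae (SD, n = 3 each), with a log2 fold change of −1.65 (SE 0.23, 95% interval −2.13 to −1.18; adjusted p 1.36e-06, edgeR). In all 13 alternatives *sad* was called lower, with log2 fold changes from −1.82 to −1.26. *CG6962* on the opposite strand shares 2.99% of its exon bases, with a log2 fold change of −1.19.

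*shd* (FBgn0003388; chromosome 3L, 14614458 to 14622205, plus strand) had the highest counts of the 10 genes. It had 5347, 6297 and 6977 counts in CG1603PBac libraries, against 2048, 1959 and 2121 counts in wt libraries. The level of *shd* was 172 ± 2.28 CPM in CG1603PBac and 69.1 ± 2.22 CPM in wt larvae (SD, n = 3 each). The replicates lay close together in both genotypes, with coefficients of variation of 1.33% in CG1603PBac and 3.21% in wt larvae, and the groups were far apart. The log2 fold change of *shd* was 1.32 (SE 0.06, 95% interval 1.19 to 1.44; adjusted p 1.9e-14, edgeR). As the third mitochondrial P450 gene among the members, *shd* moved in the opposite direction to *dib* and *sad*.

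*Cyp18a1* (FBgn0010383; chromosome X, 18688538 to 18693042, minus strand) lies end to end with *phm* on the opposite strand, with 104 bp between their annotated 3′ ends. It had 1630, 2087 and 2214 counts in CG1603PBac libraries, against 728, 782 and 649 counts in wt libraries. The level of *Cyp18a1* was 54.7 ± 2.73 CPM in CG1603PBac and 24.4 ± 2.54 CPM in wt larvae (SD, n = 3 each). The groups did not overlap, and the log2 fold change was 1.17 (SE 0.10, 95% interval 0.95 to 1.38; adjusted p 1.73e-09, edgeR). Its neighbour *phm* showed no such difference.

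*Npc1a* (FBgn0024320; chromosome 2L, 10213812 to 10221216, minus strand), which unlike the enzymes of the gland is active in many tissues, had 1786, 1927 and 2259 counts in CG1603PBac libraries, against 1325, 1176 and 1229 counts in wt libraries. The level of *Npc1a* was 55.2 ± 2.11 CPM in CG1603PBac and 42.0 ± 1.75 CPM in wt larvae (SD, n = 3 each). The difference was the smallest of the 5 called but clear of the spread, with a log2 fold change of 0.39 (SE 0.09, 95% interval 0.21 to 0.57; adjusted p 0.000387, edgeR). With library totals the log2 fold change of *Npc1a* was 0.79, so its size depends on the scaling. *shd*, *Cyp18a1* and *Npc1a* were each called higher in all 13 alternatives.

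**Figure D2:**
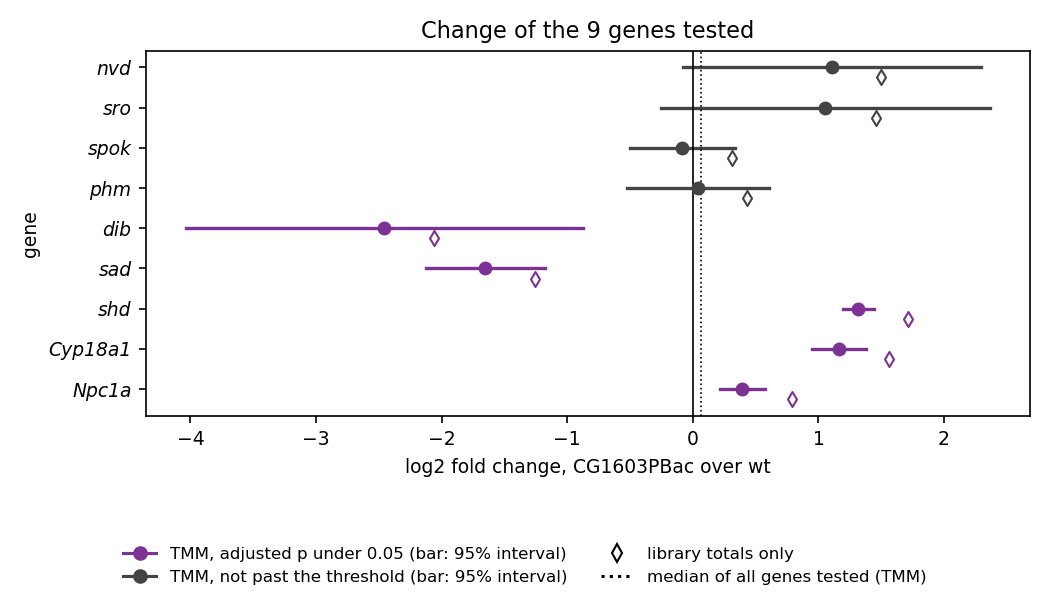
Log2 fold change of CG1603PBac over wt for the 9 genes tested. Circles with bars are TMM-scaled estimates with 95% intervals, coloured by the adjusted p threshold, diamonds are estimates with library totals only, and the dotted line is the median of all genes tested. The bars of *nvd*, *sro*, *spok* and *phm* cross 0, those of *dib* and *sad* lie below it, and those of *shd*, *Cyp18a1* and *Npc1a* lie above it.

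Levels of different genes were compared as CPM per kb of exon. In CG1603PBac larvae the order was *shd* (57.0 ± 0.757), *Cyp18a1* (17.9 ± 0.895), *Npc1a* (10.6 ± 0.407), *spok* (4.93 ± 1.00), *sad* (2.46 ± 0.712), *phm* (2.11 ± 0.306), *sro* (1.71 ± 0.335), *nvd* (1.2 ± 0.0981), *dib* (0.160 ± 0.0926) and *spo* (0.0163 ± 0.0282). The standard deviations of the neighbours *sad* and *phm*, and of *phm* and *sro*, overlapped. In wt larvae the order was *shd* (22.9 ± 0.736), *Npc1a* (8.09 ± 0.336), *Cyp18a1* (7.99 ± 0.834), *sad* (7.72 ± 0.818), *spok* (5.23 ± 0.292), *phm* (2.05 ± 0.239), *dib* (0.884 ± 0.196), *sro* (0.819 ± 0.529), *nvd* (0.559 ± 0.244) and *spo* (0.00915 ± 0.00792). *Npc1a*, *Cyp18a1* and *sad* had levels per kb within their standard deviations of each other in wt larvae, as did *dib*, *sro* and *nvd*. *sad* stood above *spok* in wt larvae and below it in CG1603PBac larvae.

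The 6 genes *nvd*, *sro*, *spok*, *phm*, *dib* and *sad* are known as genes of the prothoracic gland in larvae, and summing them gives a measure of its synthesis transcripts. In a whole-larva library, fewer gland cells and less RNA per gland cell cannot be told apart. Their summed level was 22, 24.8 and 19.5 CPM in CG1603PBac libraries, against 33.1, 29.6 and 30.6 CPM in wt libraries. With TMM the sums did not overlap, and of the 6 genes *sad* differed most in CPM between the genotypes. With library totals alone the sums were 25.2, 28.4 and 22.3 CPM in CG1603PBac libraries, against 28.6, 25.7 and 27.1 CPM in wt libraries, and the groups overlapped. *dib* and *sad* made up 25.3%, 21.6% and 16.1% of the counts of these 6 genes in CG1603PBac libraries, against 52.8%, 49.5% and 46.3% in wt libraries.

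The make-up of the 6 transcripts, as a share of their summed level per kb, needs no scaling between libraries. *sad* held 19.4 ± 4.26% of it in CG1603PBac larvae and 44.7 ± 1.85% in wt larvae (SD, n = 3 each). *spok* held 39.1 ± 4.03% in CG1603PBac and 30.4 ± 2.33% in wt larvae, and *dib* held 1.23 ± 0.583% and 5.09 ± 0.893%. *spok* led the make-up in all 3 CG1603PBac libraries, and *sad* led in all 3 wt libraries. Since shares add up to a whole, a fall of *sad* alone raises the shares of the others.

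**Figure D3:**
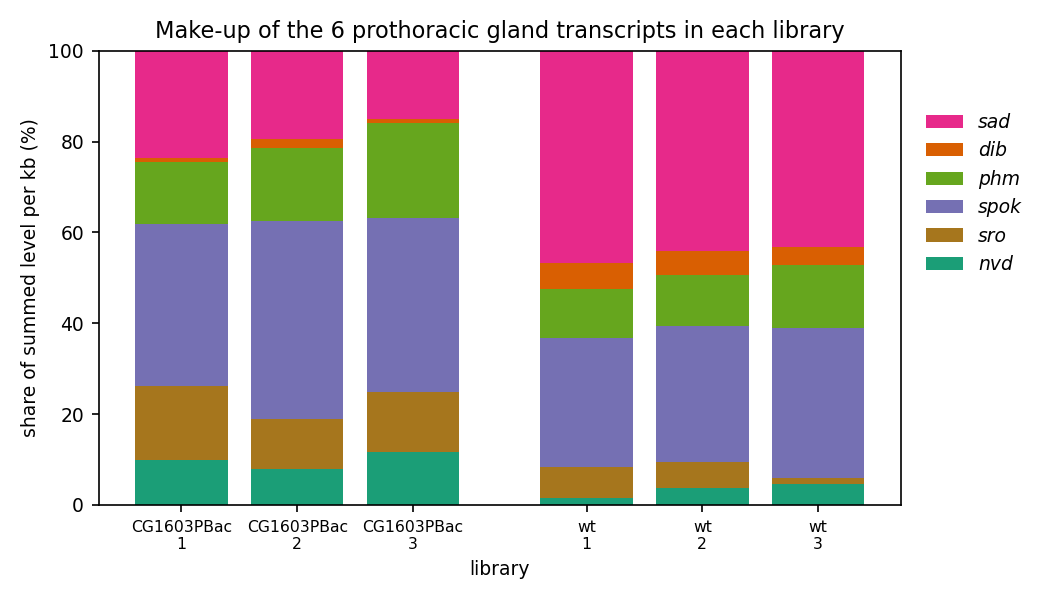
Make-up of the 6 prothoracic gland transcripts in each library, as the percent of their summed CPM per kb, with the 3 CG1603PBac libraries left and the 3 wt libraries right. The band of *sad* covers 19.4% on average in CG1603PBac larvae and 44.7% in wt larvae, and that of *dib* is the thinnest in every CG1603PBac library.

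Ratios of counts within a library were compared with a two-sided exact permutation test, whose smallest p with 3 against 3 libraries is 0.1. Over the 7 ratios computed, that p becomes 0.14 after Benjamini-Hochberg adjustment, so none could pass the threshold. *sad* over *phm* was 1.38, 0.961 and 0.582 in CG1603PBac libraries, against 3.51, 3.17 and 2.51 in wt libraries (exact p 0.1). *dib* over *phm* was 0.0583, 0.105 and 0.0385 in CG1603PBac libraries, against 0.485, 0.432 and 0.265 in wt libraries (exact p 0.1). *nvd* over *phm* was 0.558, 0.376 and 0.433 in CG1603PBac libraries, against 0.114, 0.263 and 0.258 in wt libraries (exact p 0.1). The late genes were thus lower, and *nvd* higher, against *phm* in every CG1603PBac library. *sro* over *phm* was also higher in every CG1603PBac library, by a narrow margin of 0.337 against 0.333 between the nearest libraries. *spok* over *phm* was 2.08, 2.14 and 1.47 in CG1603PBac libraries and 2.12, 2.14 and 1.91 in wt libraries (exact p 0.7), and the groups overlapped.

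Neither the hormone nor enzyme activity was measured in these data. Transcripts for inactivation and activation in whole larvae were set side by side as the count ratio of *Cyp18a1* to *shd*. It was 0.305, 0.331 and 0.317 in CG1603PBac libraries, against 0.355, 0.399 and 0.306 in wt libraries (exact p 0.3, adjusted 0.35). The groups overlapped, with wt replicate 3 among the CG1603PBac values. *shd* over *sad*, the peripheral step against the last step of the gland, was 32.2, 36.2 and 57.7 in CG1603PBac libraries, against 4.42, 5.24 and 5.60 in wt libraries (exact p 0.1). *shd* alone took 56.6%, 56.2% and 56.9% of the counts of the 10 genes in CG1603PBac libraries, against 40.2%, 41.0% and 43.2% in wt libraries.

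Across the 6 libraries, which fall into 2 genotypes that carry most of any correlation, log2 levels of *dib* and *sad* had a Pearson r of 0.95 and those of *shd* and *Cyp18a1* of 0.98. *sad* and *shd* ran against each other (r = −0.95). *spok* and *phm* had an r of 0.33. *sad* had the highest mean level per kb of the gland genes over all libraries, by a narrow margin over *spok*, and the 5 genes most like it among 11297 were *CG4573*, *CG12050*, *Parg*, *CG32164* and *MED16*, with r from 0.996 to 0.997. All 5 were called lower in CG1603PBac larvae, with log2 fold changes from −1.01 (*CG4573*) to −0.64 (*Parg*), each smaller than that of *sad*.

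Among 11 genes of sterol uptake, trafficking and supply, 4 rose, 4 fell and 3 did not pass the test. The shares over all genes tested were 34.8% higher and 34.9% lower. The median log2 fold change of the 11 genes was 0.05. Those that rose were *mag*, a gut lipase (1.28), *LpR2* (0.86) and *LpR1* (0.46), receptors for lipophorin, and *Hr96*, a nuclear receptor in cholesterol balance (0.78). *apolpp* (*Rfabg* in the files), the core protein of lipophorin, fell to 517 ± 19.2 CPM in CG1603PBac larvae, against 2156 ± 172 CPM in wt larvae (log2 fold change −2.06). *Npc2a* (−0.58), *ScpX* (−0.42) and *Start1* (−0.24, adjusted p 0.0285 by edgeR) fell as well, and with library totals *Start1* stood at 0.15 without a call and *Npc2a* and *ScpX* lost the call. *Npc1b*, the relative of *Npc1a* that takes up sterol in the midgut, had a log2 fold change of 0.05, and *Npc2b* of 0.09. That of *nobo* (*GstE14*), a glutathione transferase of the gland, was −0.05 (SE 0.58), on 26 to 72 counts in a library. None of these 3 passed the test, but with library totals *Npc1b* (0.45, adjusted p 0.000634 by edgeR) and *Npc2b* (0.48, adjusted p 0.000507) were called higher. *Start1* also lost the call when CG1603PBac replicate 1, CG1603PBac replicate 3 or wt replicate 3 was left out, with adjusted p from 0.0691 to 0.128 by edgeR.

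P450 enzymes need electrons from a partner protein. Of the 4 genes for these partners 3 were called, where 69.7% of all genes tested were. *Cpr*, the reductase that serves microsomal P450 enzymes, rose to 492 ± 10.6 CPM in CG1603PBac larvae, against 271 ± 10.7 CPM in wt larvae (log2 fold change 0.86, SE 0.05; adjusted p 2.7e-13, edgeR). *dare*, the adrenodoxin reductase that serves mitochondrial P450 enzymes, fell to 32.4 ± 1.06 CPM in CG1603PBac larvae, against 49.7 ± 5.94 CPM in wt larvae (log2 fold change −0.62, SE 0.10; adjusted p 1.64e-05, edgeR). With library totals *dare* was at −0.22 with an adjusted p of 0.0565, and 22% of its exon bases are shared with *CG30033* on the opposite strand. The ferredoxin gene *Fdx1* (*Fdxh*) rose by a log2 fold change of 0.48, and *Fdx2* (*CG1319*) had 0.05 without a call, and was called higher with library totals (0.44, adjusted p 0.000232 by edgeR). These genes act in many tissues besides the gland.

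Of 17 genes known from signals to the gland, 7 rose, 1 fell and 9 did not pass the test. Among all genes tested, 34.8% rose and 34.9% fell. These genes were read in whole larvae, so their levels in the gland or in the cells that signal to it are not known. *Ptth*, the brain hormone that drives ecdysone synthesis, had 34, 103 and 68 counts in CG1603PBac libraries, against 2, 43 and 16 counts in wt libraries. The groups overlapped and *Ptth* did not pass the test (log2 fold change 1.42, SE 0.77; adjusted p 0.107, edgeR). Without wt replicate 2 its adjusted p was 0.0104, and it was 0.0237 with limma-voom. *tor*, the receptor of Ptth, had 7, 9 and 31 counts in CG1603PBac and 40, 37 and 4 counts in wt libraries, without a call. The insulin receptor gene *InR* (2.18) and *jeb* (2.02), the ligand of Alk, had the highest log2 fold changes of the list. *Dsor1* (−0.54), a MAP kinase kinase, was the only one that fell. It lost the call with library totals, under which 14 of the 17 genes and 8246 of all genes tested were called.

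Of 8 transcription factors known to act on ecdysone synthesis genes, 3 rose, 1 fell and 4 did not pass the test. Over all genes tested, 34.8% rose and 34.9% fell. *maf-S* (0.69) and *cnc* (0.64), which form a pair, and *mld* (0.60), which acts on *spok* and *nvd*, rose. *woc* (−0.35, adjusted p 0.00378 by edgeR) fell, but stood at 0.04 without a call with library totals, and 28.5% of its exon bases are shared with an antisense RNA. *kni* had the lowest log2 fold change (−0.46) and did not pass the test.

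Of 3 genes for the export, import and oxidation of ecdysone, 2 were tested and 2 were higher, as were 34.8% of all genes tested. Their levels are those of whole larvae, so the part of the gland in them cannot be told. *Oatp74D*, the importer of ecdysone into cells, rose to 124 ± 2.53 CPM in CG1603PBac larvae, against 54.9 ± 0.647 CPM in wt larvae (log2 fold change 1.18). *Atet*, which loads ecdysone into secretory vesicles of the gland, rose to 95 ± 6.15 CPM in CG1603PBac larvae, against 52.1 ± 2.42 CPM in wt larvae (log2 fold change 0.87). *Eo*, an ecdysone oxidase, had at most 27 counts in a library and was not tested.

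Of 16 genes tested in the list of the ecdysone receptor and early response genes, 8 rose, 6 fell and 2 did not pass the test. The list also holds genes that act after the early ones, such as *ftz-f1*. Its counts therefore do not describe the early response alone. The median of their log2 fold changes was 0.16. *Eip74EF*, an early ecdysone-induced factor, rose to 32.6 ± 2.28 CPM in CG1603PBac larvae, against 5.5 ± 0.902 CPM in wt larvae (log2 fold change 2.57). *ftz-f1*, a nuclear receptor that follows the hormone pulse, rose by a log2 fold change of 1.98, and 29.4% of its exon bases are shared with a long noncoding RNA on the same strand. *ImpE3* and *ImpE1*, ecdysone-inducible genes of imaginal discs, fell by 2.63 and 1.98 on the log2 scale. The list thus moved in both directions, as did all genes tested, of which 34.8% rose and 34.9% fell.

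**Figure D4:**
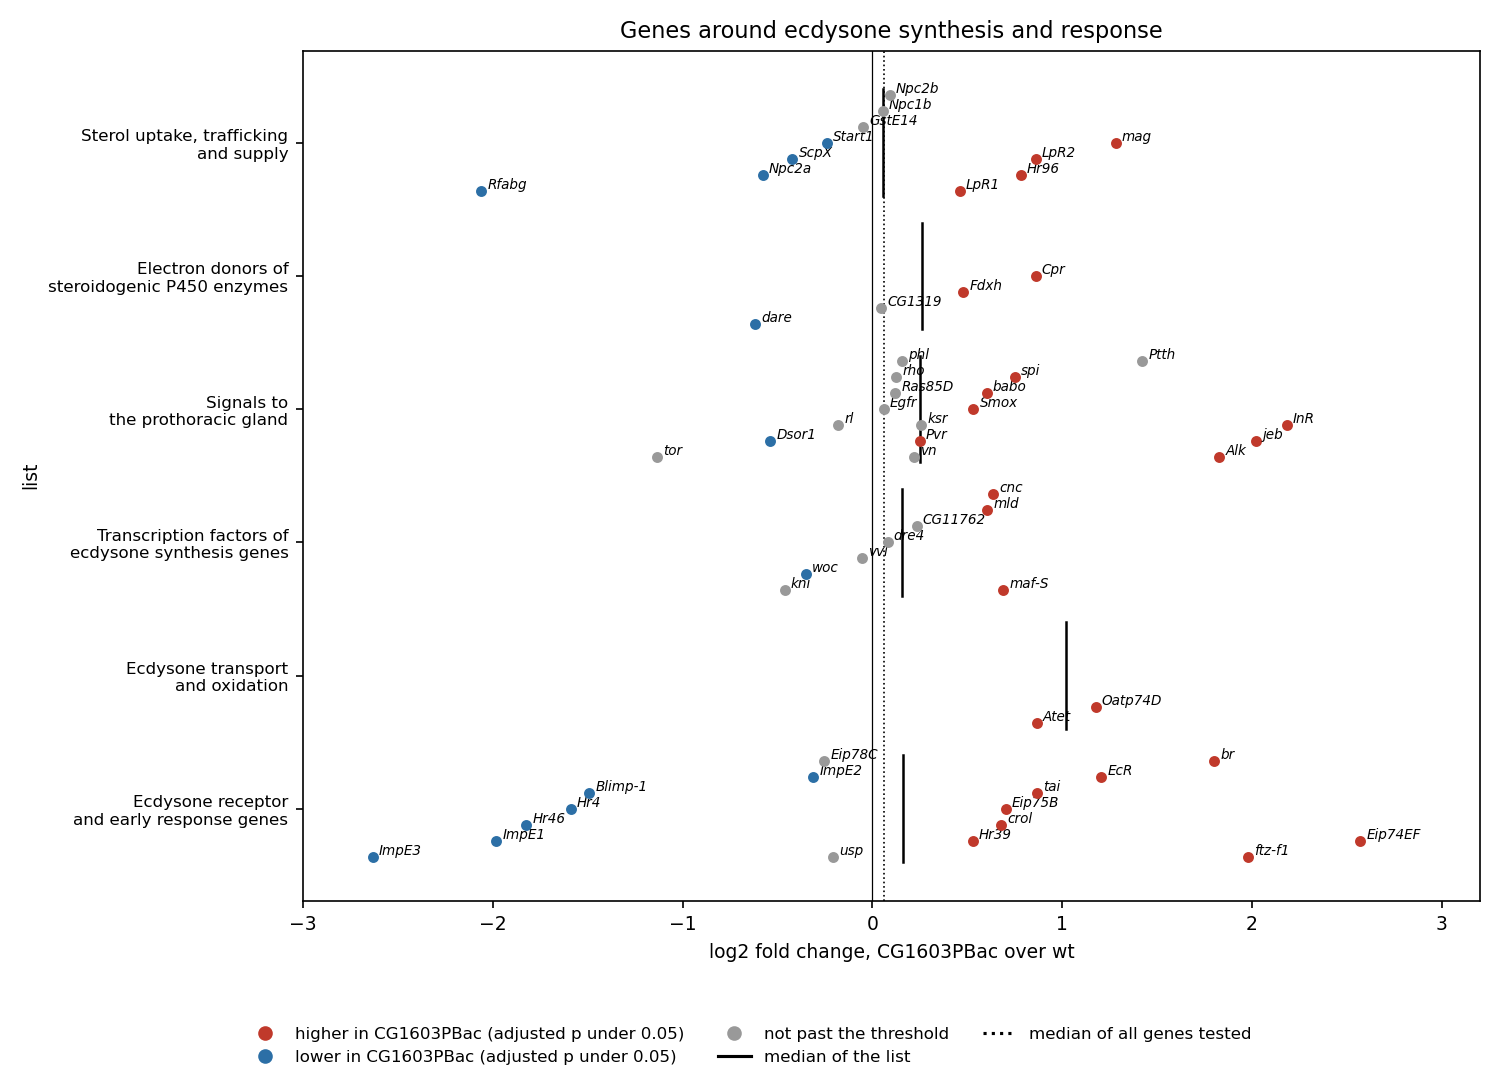
Log2 fold change of CG1603PBac over wt for genes around ecdysone synthesis and response, 1 point a gene and 1 row a list. Red points were higher and blue points lower in CG1603PBac larvae at an adjusted p under 0.05, grey points did not pass, short lines are list medians and the dotted line is the median of all genes tested. The median of the receptor and early response list, which also holds genes that act later, is 0.16, with members from −2.63 to 2.57.

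Beside the members, 75 other P450 genes (symbols beginning with Cyp) were tested. Of these 31 rose, 21 fell and 23 did not pass, and the median was 0.14 on the log2 scale. For all genes tested the median was 0.06, with 34.8% higher and 34.9% lower.

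Markers of several tissues differed between the genotypes as well, as did 69.7% of all genes tested. The ring gland holds other glands next to the prothoracic gland. *jhamt*, a gene of the corpus allatum, had 7.76 ± 0.373 CPM in CG1603PBac and 7.81 ± 2.12 CPM in wt larvae, and *Akh* of the corpora cardiaca had 7.17 and 7.59 CPM, neither past the test. *Lst* (*CG8317*), also of the corpora cardiaca, rose by a log2 fold change of 1.33. Of 7 fat body genes tested 5 fell and 2 did not pass, and their sum was 2628 to 2700 CPM in CG1603PBac libraries and 5411 to 5779 CPM in wt libraries, with *Fbp1* at 0 in all of them. Of 8 midgut genes 3 rose and 4 fell, with sums of 4009 to 4191 CPM in CG1603PBac and 5413 to 6171 CPM in wt libraries. Of 4 Malpighian tubule genes 2 rose and 1 fell, with sums of 422 to 424 CPM in CG1603PBac and 379 to 409 CPM in wt libraries. Of the 3 tissues named above for *shd*, the summed markers were thus lower in CG1603PBac larvae for fat body and midgut and higher for Malpighian tubules, and the midgut markers went both ways, with *Amy-p* at a log2 fold change of 2.46 and *Jon65Aiii* at −1.72. All 5 muscle genes fell, with sums of 10069 to 10313 CPM in CG1603PBac and 25012 to 26234 CPM in wt libraries, and all 4 neuron genes rose, with sums of 575 to 594 CPM in CG1603PBac and 191 to 221 CPM in wt libraries. Of 3 germ line genes tested 2 fell, with sums of 2.61 to 3.5 CPM in CG1603PBac and 8.25 to 10.1 CPM in wt libraries, and no testis gene had enough counts to be tested. The part of these tissues in the values of the 10 genes was not tested, and whether the larvae of both genotypes stood at the same point of the instar was not measured in these data.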

How the data were processed

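Poly(A) RNA of 3 CG1603PBac and 3 wt whole-larva samples was measured. The authors used FastQC for read quality, STAR for alignment to dm6 and HTSeq for counting by gene. The deposited values are raw counts, neither normalized nor pooled. The annotation version and the strand setting are not given in the sources used here. The 5 HTSeq categories that name no gene were not used; they held 44.8% to 45.5% of the reads in CG1603PBac and 20.2% to 21.0% in wt libraries. Replicates of a genotype differed beyond sampling noise (chi-square per gene 7.46 to 17.0), so all 6 libraries were kept.

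Counts were scaled by TMM, filtered (filterByExpr, minimum count 10, minimum total 15) and compared between genotypes by the robust quasi-likelihood F test of edgeR 4.0.16 (R 4.3.3), with Benjamini-Hochberg adjustment across 11306 genes. The SE is the log2 fold change divided by the square root of F. The biological coefficient of variation was 0.127. Exon lengths and coordinates came from Ensembl release 115 on dm6; of 16727 symbols 12512 matched as current and 4062 as older ones. Fits were tried on simulated counts in which few genes changed. Of 1.5-fold changes 53.7% were recovered and of 2-fold changes 91%, and 10 of 173 calls were false. Recovery at counts and scatter like those of *nvd* and *sro* was not tested separately. The coefficients of variation of *nvd* and *sro* in wt larvae were 43.7% and 64.6%. Far more genes differed in the real data, so the simulation could not check the scaling. DESeq2 1.42.0, limma 3.58.1 (voom), other scalings and filters, a replicate block and leaving out each library were the alternatives. The named genes are all 10 members and every gene of the sterol, electron donor and transport lists. Of the other pathway lists they are the 2 highest and 2 lowest log2 fold changes with *Ptth* and *tor*. *mld* was named outside this rule, as were genes listed below for a turn of direction. *Lst*, *jhamt* and *Akh* are ring gland markers, and the midgut markers *Amy-p* and *Jon65Aiii* were named after their values were seen. The genes most like *sad* were ranked by Pearson r of log2 CPM (prior count 2). The members and lists were chosen with earlier results of these data known.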

Additional observations from a re-analysis of the deposited data

How the results depend on the processing

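Over all alternatives run, 106 values of the members kept direction and side of the threshold, 0 lost the call, 5 turned direction, and 4 passed the threshold only under the alternative. The 5 were of *spok* and *phm*, which were not called in any alternative: *spok* stood at 0.31 with library totals, and leaving out 1 library at a time gave log2 fold changes of −0.26 to 0.023 for *spok* and of −0.036 to 0.16 for *phm*. The 4 were *nvd* with library totals (1.5, adjusted p 0.0235), with at least 10 counts in every library (1.14, adjusted p 0.0198) and without wt replicate 3, and *sro* with library totals (1.46, adjusted p 0.0434), all by edgeR. Leaving out 1 library at a time gave *nvd* log2 fold changes of 0.79 to 1.39 and *sro* of 0.60 to 1.51. With library totals 5 members were called higher, and 14 genes of the list of signals to the gland were called. That scaling called 5661 genes higher and 2585 lower, against 3936 and 3946 with TMM, and it turned the direction of *Start1* (0.15), *vvl* (0.34), *woc* (0.041), *ImpE2* (0.082), *nobo* (*GstE14*, 0.34), *rl* (0.21), *usp* (0.19) and *Eip78C* (0.14). *nobo* was at 0.00068 with limma-voom. Leaving out 1 library at a time, the log2 fold changes ran from −0.055 to 0.16 for *Npc1b*, −0.34 to 0.33 for *nobo*, −0.038 to 0.11 for *Fdx2* (*CG1319*) and −0.34 to 2.03 for *ouib* (*CG11762*). The summed level of the gland genes with library totals was added after seeing the data. With at least 10 counts in every library 1 member was called lower, since *dib* and *sro* were not tested there.

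The replicate numbers did not pair the libraries: same-numbered libraries had correlated deviations of 0.0057, −0.020 and −0.0084. With the replicate block 7741 genes were called, against 7882 without it, and 5 members, as without it. With the block *Ptth* passed the threshold (1.91, adjusted p 0.0412, edgeR). Only pair 1 correlated best with its own number.

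Counts under 100 limit *nvd*, *sro* and *dib*, whose intervals are wide, and *spo*, which was not tested. Outside the members, *nobo*, *tor* and *ouib* also had counts under 100 in every library. With 3 libraries a genotype, exact tests of ratios cannot pass the threshold. Intervals cover the spread between these libraries only.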
